A study of Mus musculus with 6 samples.

Results

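Integrins, the adaptor proteins of focal adhesions and the proteins that build and cut actin filaments were followed as 1 group of 46 genes, chosen by name, among the 24602 genes of the deposited table. This group, the pathway lists and the cell type markers were chosen with earlier results of these data known. RNA came from the left ventricle of wild-type mice 5 weeks after transverse aortic coarctation (TAC), which narrows the aortic arch and loads the ventricle with pressure, or after a Sham operation. There were 3 TAC libraries and 3 Sham libraries, and setting them side by side asks which transcripts of this machinery differ under pressure load. Both groups were wild type, and the labels give no age, sex or strain of the mice. They do not say whether the libraries are from separate mice, so p-values here reflect the spread between these samples alone, and that spread may be technical.

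Integrins are receptors made of an alpha and a beta chain that bind the extracellular matrix outside the cell and, through talin, kindlin and vinculin, the actin cytoskeleton inside it. In heart muscle these adhesions sit at costameres, which tie the sarcomere to the matrix and carry force sideways, and at the intercalated disc. Focal adhesion kinase, Src and the Cas and Crk adaptors signal from them, and Ena/VASP proteins, profilin, cofilins, thymosins and capping proteins set how actin filaments grow and turn over.

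Values are given as FPKM, the deposited level per length of transcript, or as CPM, the deposited estimated counts scaled by TMM library size, and 3 values in a row are replicates 1, 2 and 3 of a group. A value ± its error in brackets after them is the log2 fold change of TAC over Sham with its standard error (SE). Library totals of estimated counts ran from 64023153 to 69992502. A gene was tested where its mean FPKM over the 6 libraries was 1 or more, and it was called where edgeR's quasi-likelihood test gave a Benjamini-Hochberg adjusted p under 0.05 over all 8795 tested genes. The groups separated on the first principal component (47.6% of the variance), and TAC replicate 3 stood apart on the second (25.3%). All 9 cardiomyocyte markers were tested and none was called, with summed levels of 24049 to 30405 FPKM in TAC and 31511 to 37153 FPKM in Sham. Their count was also 0 at an unadjusted p under 0.05 and by DESeq2. All 6 tested markers of activated fibroblasts, a list chosen with earlier results known, rose. Their summed levels were 46.0, 45.5 and 136.9 FPKM in TAC and 24.6, 24.3 and 19.5 FPKM in Sham. Among 10 fibroblast markers 3 rose and 0 fell, while 6 had an unadjusted p under 0.05 in either direction and DESeq2 called 4. Log2 fold changes of these 10 had their median at 0.82. The sum of their levels did not show this, at 624 to 786 FPKM in TAC and 730.3 to 810.1 FPKM in Sham. Most of that sum was Gsn, with a mean of 606 FPKM over the 6 libraries and a log2 fold change of -0.19 ± 0.13 (not called). None of the 6 tested macrophage markers was called (1 at an unadjusted p under 0.05 and 1 by DESeq2), with 289.8 to 397 FPKM in TAC and 294 to 348 FPKM in Sham. No marker of these lists was at 0. The ventricle is a mixture of cells, and in bulk RNA a changed number of cells of a type and a changed amount of RNA per cell cannot be told apart.

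Of the 46 genes, 36 were tested. In TAC 7 of the 36 rose (19.4%), where 4.71% of all tested genes did, and 0 fell, where 2.29% did. Because the group was chosen with earlier results of these data known, these shares describe it and are no independent test. The 7 were Enah (log2 fold change 2.09 ± 0.22, SE), Crk (1.23 ± 0.18), Itgb1 (0.98 ± 0.22), Capg (0.79 ± 0.15), Vim (0.79 ± 0.15), Cfl2 (0.75 ± 0.18) and Tmsb4x (0.74 ± 0.12), with adjusted p between 0.00938 and 0.0442. They are an actin elongation factor, an adaptor, an integrin chain, an actin capping protein, an intermediate filament, a cofilin and an actin monomer-binding protein. The other 29 did not pass. At an unadjusted p under 0.05 there were 15, of which 5 had a negative log2 fold change, without a share over all tested genes to set beside them. The other counts at an unadjusted p given here lack that share too, so none of them shows an excess. DESeq2 called 9 higher, where it called 11.7% of all tested genes higher. It called 2 lower (Itga3 and Itga7), where it called 7.02% of all lower. The median log2 fold change of the 36 was 0.04, beside -0.01 for all tested genes, with 19 above 0 and 17 below. Every TAC library lay above every Sham library in 10 of the 36 (27.8%, beside 17.7% of all tested genes), and below in 5 (13.9%, beside 17.1%).

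**Figure D1:**
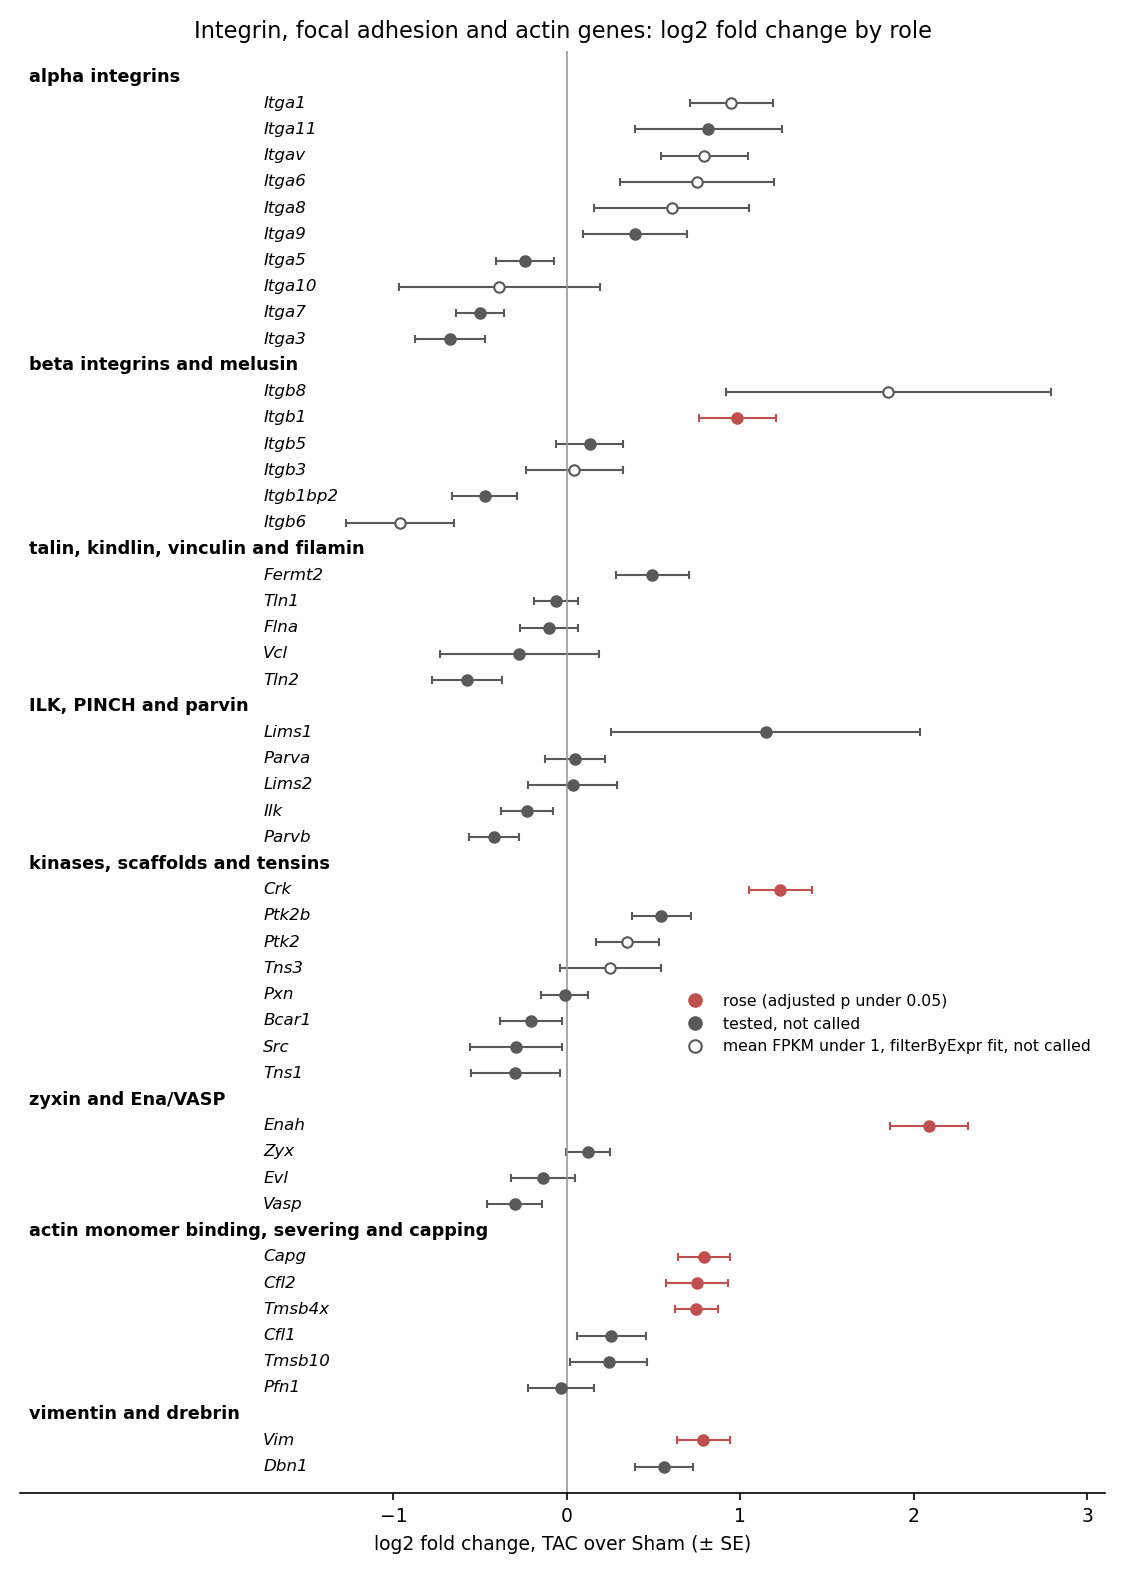
Log2 fold change of TAC over Sham for all 46 genes, grouped by role, with the standard error as a horizontal bar. Red points are the 7 genes that rose, between 0.74 and 2.09; grey points are the 29 tested genes that were not called; open points are the 10 genes with a mean FPKM under 1, whose values come from a fit with a lower limit on expression.

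The calls were uneven over the libraries. Without TAC replicate 3 all 7 kept their call and 4 others, Itga3, Itga7, Tln2 and Tns1, were called lower, in a fit that called 9.24% of all tested genes higher and 10.1% lower. Without Sham replicate 2 none of the 7 passed, with edgeR adjusted p between 0.0652 for Enah and 0.167 for Itgb1. Their log2 fold changes stayed between 0.61 and 2.09. That fit called only 9 of all 8795 tested genes higher and 3 lower, where the fit with all libraries called 414 and 201. Without TAC replicate 1 the counts were 33 and 18, and without Sham replicate 3 they were 30 and 21. In these fits calls were therefore lost over the whole table.

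**Figure D2:**
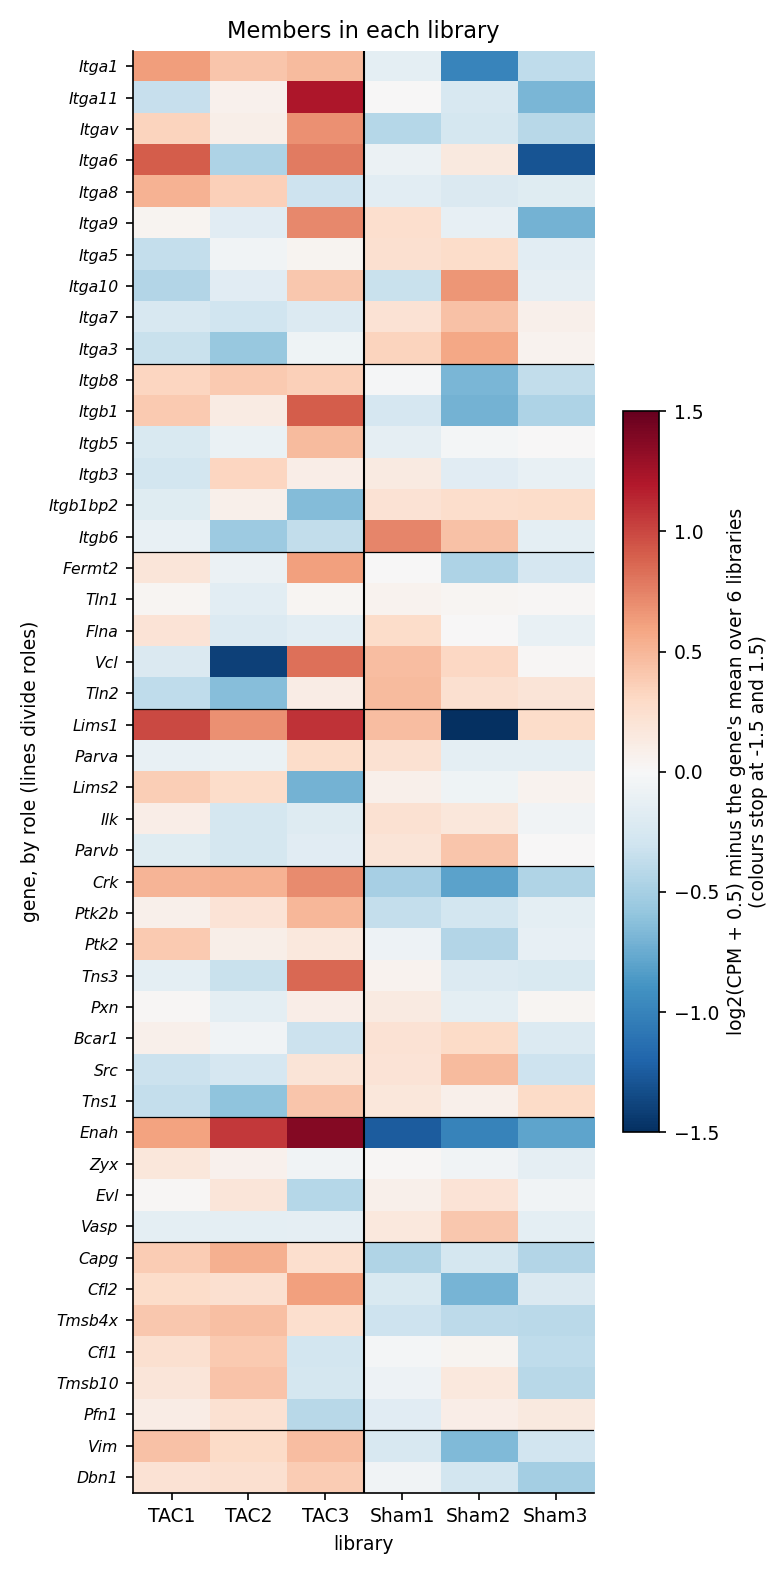
Each gene (rows, by role) in each library (columns), as log2(CPM + 0.5) minus the gene's own mean over the 6 libraries. Red is above the mean and blue below; Enah and Crk are red in all 3 TAC columns and blue in all 3 Sham columns, while Itga11, Tns3 and Vcl are reddest in TAC replicate 3.

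Among the receptors, none of the 5 tested alpha chains was called (2, Itga3 and Itga7, at an unadjusted p under 0.05 and by DESeq2), and 5 others had a mean FPKM under 1. Itga7, the main laminin-binding alpha chain of striated muscle, had the highest level of the 10, at 23.0, 22.0 and 26.9 FPKM in TAC, against 35.9, 44.0 and 32.7 FPKM in Sham. In CPM the groups did not overlap, with 218, 209 and 224 CPM in TAC, against 299.9, 349.9 and 271 CPM in Sham. The log2 fold change was -0.50 ± 0.14 (edgeR adjusted p = 0.0671, and 0.0327 without TAC replicate 3). Without Sham replicate 2 it was -0.40 (edgeR adjusted p = 0.247), and with each library's GC and length trends removed -0.28 (0.165). Itga3, another laminin receptor chain, had 14.0, 11.8 and 17.0 CPM in TAC, against 22.6, 26.9 and 18.6 CPM in Sham. All its TAC libraries were below all Sham libraries (-0.67 ± 0.20, edgeR adjusted p = 0.0761, and 0.0240 without TAC replicate 3). Its log2 fold change was -0.53 without Sham replicate 2 (edgeR adjusted p = 0.265) and -0.45 with these trends removed (0.134). Itga5, the chain of the classical fibronectin receptor, was the next highest per length after Itga7, with 16.5 ± 3.37 FPKM in TAC and 21.5 ± 3.69 FPKM in Sham (SD, n = 3 each), and its groups overlapped. Itga9, which binds tenascin-C and VCAM-1 among others, and Itga11, a collagen receptor chain of fibroblasts, had their highest value in TAC replicate 3. Itga11 had 3.97, 5.47 and 12.7 CPM in TAC, against 5.21, 4.31 and 3.05 CPM in Sham. Its log2 fold change was 0.82 ± 0.42 with all 6 libraries and 0.17 without TAC replicate 3.

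The low alpha chains took their values from a fit with edgeR's filterByExpr, which tested 15926 genes and called 3.00% higher and 1.86% lower. None of the 10 low genes was called there, and 3 had an unadjusted p under 0.05, namely Itga1, Itgav and Itgb6. Itga1, a collagen-binding chain, had 12.0, 10.2 and 10.7 CPM in TAC, against 6.76, 3.54 and 5.71 CPM in Sham (0.95 ± 0.24, adjusted p = 0.0546; 0.0332 without TAC replicate 3). Itgav, a chain that pairs with Itgb3, Itgb5, Itgb6 and Itgb8 among other beta chains, had 3.40, 2.78 and 4.46 CPM in TAC. In Sham it had 1.80, 2.08 and 1.82 CPM (0.79 ± 0.25, edgeR adjusted p = 0.0890). In both genes every TAC library was above every Sham library. Itga6, Itga8 and Itga10 overlapped between the groups, with log2 fold changes of 0.75 ± 0.44, 0.60 ± 0.45 and -0.39 ± 0.58. Of the exonic bases of Itga10, 33.5% lie in another record on the same strand, so its counts are uncertain. Itga1 and Itga6 match the records Gm49395 and Gm29397 without a difference over 451 and 326 aligned bases and could share reads with them.

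Itgb1, the beta chain shared by most matrix-binding alpha chains of muscle (chromosome 8, 128685654 to 128733200, plus strand, GRCm38), had 73.4, 60.8 and 105 CPM in TAC, against 46.9, 33.9 and 40.3 CPM in Sham. All TAC libraries lay above all Sham libraries, with TAC replicate 3 the highest. Its mean was 79.7 ± 22.8 CPM in TAC and 40.4 ± 6.48 CPM in Sham (SD, n = 3 each), a log2 fold change of 0.98 ± 0.22 with an edgeR adjusted p of 0.0390. The value was 0.73 without TAC replicate 3 (adjusted p = 0.0190), and the call was lost when TAC replicate 1 or Sham replicate 1, 2 or 3 was left out (adjusted p between 0.0561 and 0.167). Its partner in the cytoplasm, Itgb1bp2, encodes melusin, a muscle protein that binds the tail of the Itgb1 chain and is known in mice to help the heart withstand pressure overload. Itgb1bp2 had the highest FPKM of the 46 genes, with 79.1, 94.0 and 64.9 FPKM in TAC, against 118, 128 and 124 FPKM in Sham. In CPM it had 167, 198 and 119.8 CPM in TAC, against 219, 226 and 228 CPM in Sham, lower in all TAC libraries than in all Sham libraries, with TAC replicate 3 the lowest (-0.47 ± 0.19, adjusted p = 0.142; not called).

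Per length, Itgb5 was the leading beta chain, with 56.3 ± 20.2 FPKM in TAC and 56.1 ± 3.66 FPKM in Sham, and its groups overlapped in CPM (0.13 ± 0.19, adjusted p = 0.711). Over 343 aligned bases Itgb5 is 99.7% identical to another record, Gm38317, which could share its reads. The share of Itgb1 in the summed FPKM of the 5 beta chains was 26.3, 21.1 and 23.8% in TAC, against 17.4, 12.5 and 14.2% in Sham, or 23.7% ± 2.57 in TAC and 14.7% ± 2.5 in Sham (SD, n = 3 each). That of Itgb5 was 75.4% ± 2.52 in TAC and 84.1% ± 2.74 in Sham. Neither share overlapped between the groups. These 2 chains made up nearly all of the sum, so the share of Itgb5 mirrors that of Itgb1 and is not a separate result. Among the 10 alpha chains, the share of Itga7 was 50.3, 47.7 and 42.9% in TAC, against 50.9, 54.7 and 56.7% in Sham, also without overlap, and that of Itga3 was 4.33% ± 0.45 in TAC and 5.64% ± 0.286 in Sham. Itga1, Itgav and Itga11 had larger shares in every TAC library than in any Sham library, with means of 1.03%, 0.568% and 2.41% in TAC and 0.419%, 0.252% and 1.15% in Sham. With 3 libraries against 3, an exact 2-sided permutation test cannot go below p = 0.1, the value each of these shares reached, and 0.154 is the lowest after adjustment over the 20 shares examined. The other beta chains were low. Itgb8 had between 29 and 38 estimated counts per library in TAC and 20, 0 and 8 in Sham, and Itgb6 had 2.20, 1.5 and 1.77 CPM in TAC, against 4.37, 3.45 and 2.14 CPM in Sham (-0.96 ± 0.31, adjusted p = 0.0931). Itgb3 had a log2 fold change of 0.04 ± 0.28.

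**Figure D3:**
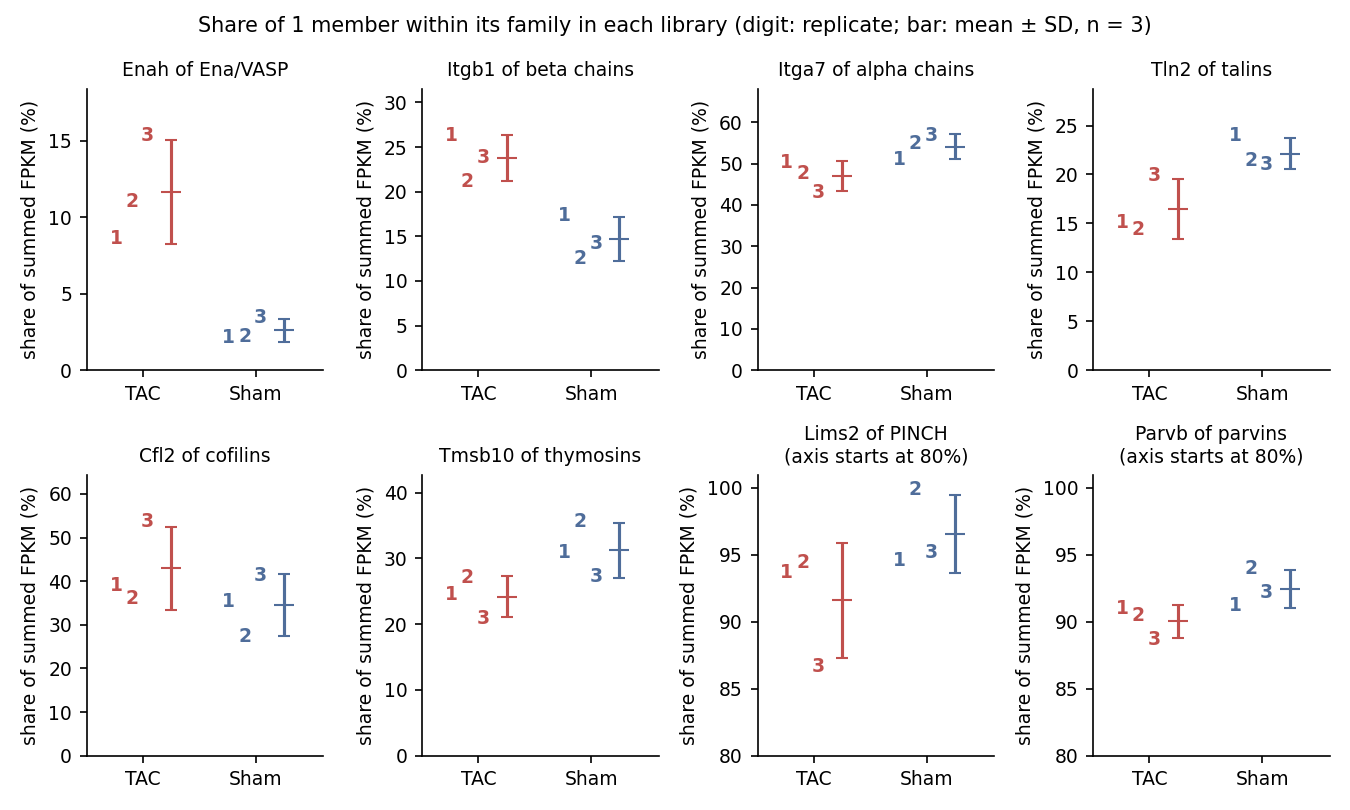
Share of 1 gene in the summed FPKM of its family, in percent, for each library (digits are replicate numbers, bars are mean ± SD, n = 3). The Enah, Itgb1, Itga7, Tln2, Tmsb10, Lims2 and Parvb shares did not overlap between TAC and Sham, and the Cfl2 share did; the axes of Lims2 and Parvb start at 80%.

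None of the 5 genes that join integrins to actin directly was called (2 had an unadjusted p under 0.05, and DESeq2 called 0). Tln1, the widely expressed talin, had 263, 231 and 262 CPM in TAC, against 266, 263 and 259.7 CPM in Sham, and its log2 fold change was -0.06 ± 0.12. Tln2, the talin typical of adult striated muscle costameres, had 87.1, 72.7 and 122 CPM in TAC, against 157, 134 and 129.5 CPM in Sham. Its TAC libraries were all below its Sham libraries, TAC replicate 3 coming nearest (-0.58 ± 0.20, adjusted p = 0.107). Without that library it was called, at -0.81 (adjusted p = 0.0105), in a fit that called 10.1% of all tested genes lower. It was also called once each library's GC and length trends were taken out, at -0.51 (adjusted p = 0.0308). When any other library was left out it was not called (edgeR adjusted p between 0.178 and 0.270). Of the summed talin FPKM, Tln2 made up 15.0, 14.4 and 19.9% in TAC, against 23.9, 21.4 and 21% in Sham, without overlap (exact permutation p = 0.1). Fermt2, a kindlin and the other activator that binds the beta tail, had 39.3, 32.6 and 53.3 CPM in TAC, against 34.9, 25.0 and 29.1 CPM in Sham (0.49 ± 0.21, adjusted p = 0.169). Vcl, vinculin, which reinforces talin under tension, was the most scattered of the 5, with 40.1, 17.3 and 82.7 CPM in TAC, against 64.2, 57.9 and 47.2 CPM in Sham (-0.27 ± 0.46). TAC replicates 2 and 3 were its lowest and highest libraries, and its log2 fold change was -0.98 without TAC replicate 3. Of its exonic bases, 25.5% overlap Ap3m1 on the other strand, and no source used here says whether counting used strand. Flna, the crosslinker filamin A, had a log2 fold change of -0.10 ± 0.17.

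Vcl and Fermt2 are 2 of the 3 genes here with a CArG box, the site of serum response factor, in the promoter window of RefSeq (GRCm38.p6; 250 bases before to 50 after the transcription start). Factors of this kind drive many cytoskeletal genes, so their windows are shown up to 30 bases after the start, 5′ to 3′ on the strand of the gene, with the CArG box in capitals. Vcl lies on the plus strand (window chr14:20929148-20929427) and Fermt2 on the minus strand (window chr14:45530036-45530315), and the boxes start 227 and 204 bases before the transcription start.
Vcl: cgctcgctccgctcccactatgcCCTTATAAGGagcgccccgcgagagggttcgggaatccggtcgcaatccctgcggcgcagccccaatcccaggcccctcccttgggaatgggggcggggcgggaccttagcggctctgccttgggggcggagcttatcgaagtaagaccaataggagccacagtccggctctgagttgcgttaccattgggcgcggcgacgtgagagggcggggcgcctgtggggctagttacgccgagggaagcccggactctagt
Fermt2: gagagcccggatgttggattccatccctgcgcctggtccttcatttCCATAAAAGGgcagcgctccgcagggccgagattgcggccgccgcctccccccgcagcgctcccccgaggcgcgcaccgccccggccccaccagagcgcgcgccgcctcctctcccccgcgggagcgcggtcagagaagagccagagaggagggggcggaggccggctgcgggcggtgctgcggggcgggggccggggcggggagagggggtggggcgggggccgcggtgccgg
Neither of these genes was called.

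In the complex of integrin-linked kinase, PINCH and parvin, a scaffold under the beta tails, 0 of 5 were called (1 of the 5, Parvb, had an unadjusted p under 0.05, and DESeq2 called 0). The muscle-rich parvin Parvb had 144, 137 and 146 CPM in TAC, against 188, 219 and 165 CPM in Sham, with all TAC libraries below all Sham libraries (-0.42 ± 0.14, adjusted p = 0.102). Parva, its relative, had a log2 fold change of 0.04 ± 0.17. Ilk, the pseudokinase at the centre, had 97.5, 75.8 and 79.1 CPM in TAC, against 106, 102 and 87.5 CPM in Sham (-0.23 ± 0.15). Of the exonic bases of Ilk, 89.7% overlap Rrp8 and Taf10 on the other strand, so its counts are uncertain. Lims2, the main PINCH gene by FPKM, had 143, 133 and 67.4 CPM in TAC, against 116, 106 and 114 CPM in Sham, so TAC replicate 3 was the lowest of 6. Lims1, its relative, had 932, 830 and 1240 estimated counts in TAC, against 764, 17 and 639 in Sham. Sham replicate 2 stood far below the others, and the log2 fold change of 1.15 ± 0.89 became 0.58 without it (adjusted p = 0.219). The share of Lims2 in the 2 PINCH genes was 91.6% ± 4.28 in TAC and 96.5% ± 2.89 in Sham. That of Parvb in the 2 parvins was 90.0% ± 1.22 in TAC and 92.5% ± 1.41 in Sham. Both were lower in every TAC library (exact permutation p = 0.1 each), but the nearest libraries almost met. For Lims2 these were TAC replicate 2 at 94.5% and Sham replicate 1 at 94.6%, with 99.9% in Sham replicate 2. For Parvb they were TAC replicate 1 at 91.0% and Sham replicate 1 at 91.2%.

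Of the kinases, scaffolds and tensins, 1 of 6 tested rose. Crk, the adaptor that links phosphorylated Cas and paxillin to Rac and Rap activation (chromosome 11, 75679259 to 75706065, plus strand, GRCm38), had 12.3, 12.4 and 14.2 CPM in TAC, against 5.85, 4.67 and 6.06 CPM in Sham. The groups were well separated and the 3 TAC libraries lay close together. The log2 fold change was 1.23 ± 0.18 (edgeR adjusted p = 0.0229), 1.16 without TAC replicate 3, and the call was lost when TAC replicate 1 or Sham replicate 2 or 3 was left out (adjusted p between 0.0605 and 0.10). Its partners were not called. Bcar1, the Cas scaffold, had 33.0, 30.3 and 25.1 CPM in TAC, against 36.5, 38.5 and 27.1 CPM in Sham, and Pxn, paxillin, had 64.7, 57.5 and 68.4 CPM in TAC, against 69.9, 57.5 and 64.8 CPM in Sham, both overlapping (-0.21 ± 0.18 and -0.01 ± 0.14). Src, the kinase that phosphorylates both, had a log2 fold change of -0.29 ± 0.27. Ptk2b, the calcium-sensitive relative of focal adhesion kinase, had 15.5, 16.9 and 21 CPM in TAC, against 11.3, 12.1 and 13.2 CPM in Sham, higher in every TAC library (0.54 ± 0.17, adjusted p = 0.0835). Focal adhesion kinase itself, Ptk2, had 14.9, 11.9 and 12.6 CPM in TAC, against 10.6, 8.11 and 10.2 CPM in Sham, also without overlap (0.35 ± 0.18, adjusted p = 0.255 in the filterByExpr fit). The share of Ptk2b in the summed FPKM of the 2 kinases overlapped between the groups, at 68.2% ± 5.24 in TAC and 66.9% ± 3.75 in Sham.

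Tns1, the tensin that tethers actin to the beta tail, had the highest level of this role group, with 54.1, 45.6 and 105 FPKM in TAC, against 88.7, 87.3 and 96.9 FPKM in Sham. In CPM TAC replicate 3 was the highest of the 6 libraries, at 1783 CPM, and the other 2 TAC libraries were the lowest, at 1044 and 880.4 CPM, against 1413 to 1632 CPM in Sham. With all libraries the log2 fold change was -0.30 ± 0.26 (adjusted p = 0.493), and without TAC replicate 3 it was -0.66 (adjusted p = 0.0190). Tns3 had 8.31, 7.21 and 17.2 CPM in TAC, against 9.61, 7.96 and 7.84 CPM in Sham, with TAC replicate 3 again the highest (0.25 ± 0.29).

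Enah, or Mena, which holds the growing end of actin filaments and sits at the intercalated disc in heart muscle (chromosome 1, 181896384 to 182019990, minus strand, GRCm38), changed more than any other tested gene of the group. It had 45.3, 62.7 and 78.0 CPM in TAC, against 12.3, 14.6 and 16.9 CPM in Sham. The lowest TAC library was far above the highest Sham library. Per length it was the lowest of its family, at 2.61 ± 0.875 FPKM in TAC and 0.669 ± 0.110 FPKM in Sham (SD, n = 3 each). The log2 fold change was 2.09 ± 0.22 (edgeR adjusted p = 0.00938), and of the 7 calls it was the only one kept in 5 of the 6 fits without 1 library. Its call was lost without Sham replicate 2 (2.09, adjusted p = 0.0652). Over 282 aligned bases of its 11229-base transcript it is 96.5% identical to Zfp352. Its relatives were not called. Vasp had 34.6, 34.5 and 34.9 CPM in TAC, against 42.9, 50.7 and 34.7 CPM in Sham (-0.30 ± 0.16), and Evl had 27.0, 30.3 and 19.8 CPM in TAC, against 28.2, 30.8 and 25.7 CPM in Sham (-0.14 ± 0.19). Of the summed FPKM of the 3, Enah made up 8.59, 11.1 and 15.3% in TAC, against 2.14, 2.22 and 3.44% in Sham, without overlap (exact permutation p = 0.1). Zyx, zyxin, which recruits Ena/VASP proteins to adhesions, had the highest level of these 4 genes, with 16.9, 15.7 and 16.6 FPKM in TAC, against 17.3, 17.3 and 15.6 FPKM in Sham (0.12 ± 0.13 in CPM).

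**Figure D4:**
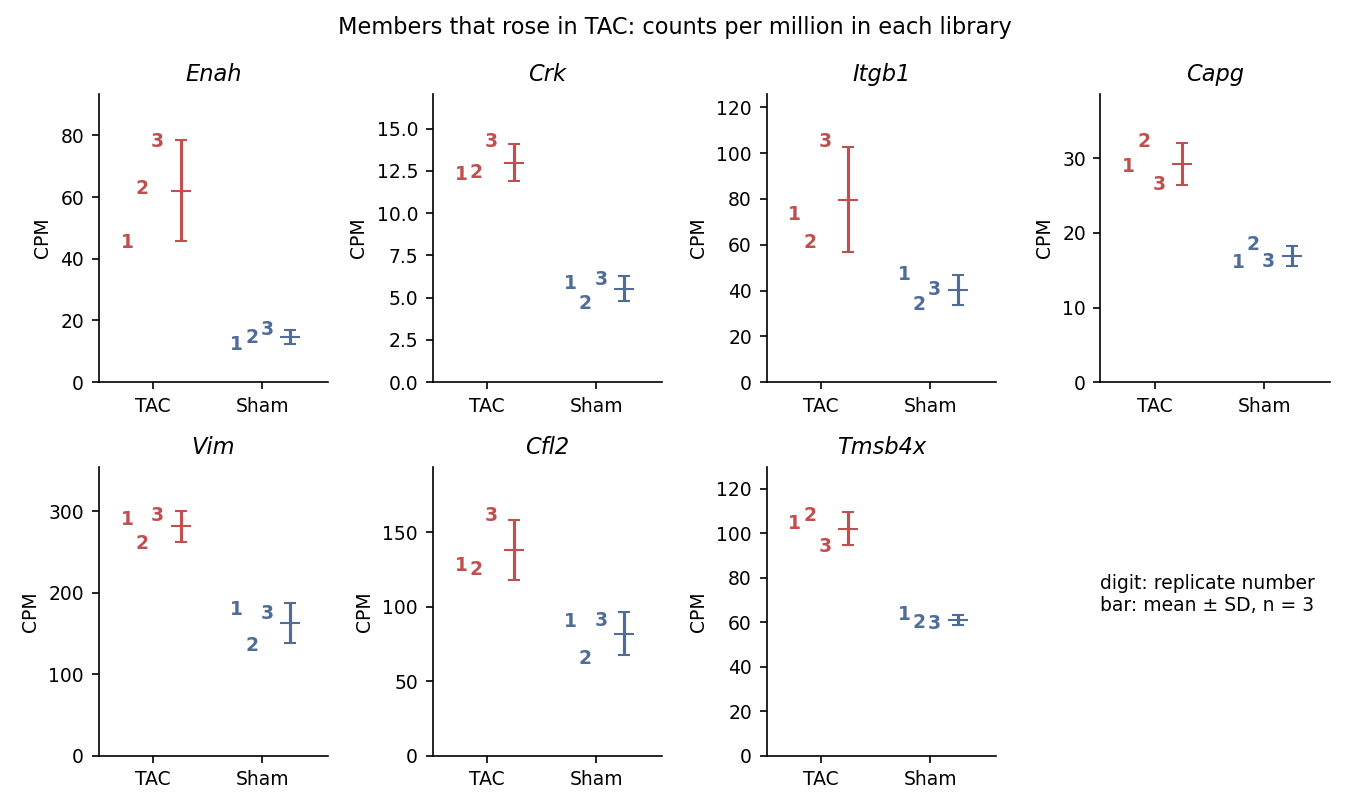
CPM of the 7 genes that rose, in each library (digits are replicate numbers, bars are mean ± SD, n = 3; axes start at 0). TAC and Sham do not overlap in any of the 7, and TAC replicate 3 is the highest TAC library for Enah, Crk, Itgb1, Vim and Cfl2 and the lowest for Capg and Tmsb4x.

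Of the 6 genes for actin monomers, severing and capping, 3 rose. Tmsb4x (chromosome X, 167207093 to 167209315, minus strand, GRCm38) encodes a thymosin that holds actin monomers in reserve. It had 104, 108 and 93.8 CPM in TAC, against 63.3, 60.0 and 59.3 CPM in Sham, with little spread in either group (0.74 ± 0.12, edgeR adjusted p = 0.0243). The call was lost when TAC replicate 1 or 2 or Sham replicate 2 or 3 was left out (adjusted p between 0.0583 and 0.118), and after removal of the GC and length trends (0.47, adjusted p = 0.0535). Its close relative Tmsb10 had 31.6, 37.5 and 23.1 CPM in TAC, against 26.3, 30.9 and 20.6 CPM in Sham, overlapping (0.24 ± 0.22, adjusted p = 0.522). Of the summed FPKM of the pair, Tmsb10 made up 24.5, 27.1 and 20.9% in TAC, against 30.9, 35.6 and 27.2% in Sham, less in every TAC library than in any Sham library, although TAC replicate 2 and Sham replicate 3 were close (exact permutation p = 0.1). The coding sequences of the pair (GENCODE M21 transcripts) show how near the relatives are, since both are 132 bases long and align without a gap. They are printed 5′ to 3′ with the 40 bases that differ in capitals (69.7% identical).
Tmsb4x: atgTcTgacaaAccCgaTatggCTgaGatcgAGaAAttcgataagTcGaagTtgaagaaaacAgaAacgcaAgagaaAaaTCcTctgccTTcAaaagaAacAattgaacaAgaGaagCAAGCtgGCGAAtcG
Tmsb10: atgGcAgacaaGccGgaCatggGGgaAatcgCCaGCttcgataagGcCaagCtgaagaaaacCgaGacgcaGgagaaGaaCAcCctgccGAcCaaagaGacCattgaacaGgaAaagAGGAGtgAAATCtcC
Over 413 aligned bases Tmsb10 is 99% identical to another record of the table, Gm9844, so its counts are uncertain.

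Capg (chromosome 6, 72544391 to 72562983, plus strand, GRCm38), a gelsolin relative that caps filament ends and is abundant in macrophages, had 28.9, 32.3 and 26.5 CPM in TAC, against 16.1, 18.5 and 16.2 CPM in Sham. The groups were clearly apart (0.79 ± 0.15, edgeR adjusted p = 0.0290), the value was 0.92 with the trends removed, and the call was lost when TAC replicate 1 or 2 or Sham replicate 1, 2 or 3 was left out (adjusted p between 0.0625 and 0.118). Summed macrophage markers were 320.6, 289.8 and 397 FPKM in TAC and 320.3, 348 and 294 FPKM in Sham, and the part of these cells in the rise of Capg was not tested. Cfl2, the cofilin of muscle that cuts and unbuilds filaments (chromosome 12, 54858809 to 54862877, minus strand, GRCm38), had 128, 125 and 162 CPM in TAC, against 90.4, 65.0 and 90.8 CPM in Sham (0.75 ± 0.18, edgeR adjusted p = 0.0442). Its transcript is the poorest in G and C of the 46, at 36.9%, and after removal of the GC and length trends its log2 fold change was 0.02 (adjusted p = 0.938). The call was lost when TAC replicate 1 or 2 or Sham replicate 1, 2 or 3 was left out (adjusted p between 0.0684 and 0.163). The general cofilin Cfl1 had 174, 193 and 121 CPM in TAC, against 144, 151 and 113 CPM in Sham (0.26 ± 0.20), and 16.5% of its exonic bases overlap Snx32 on the other strand. The share of Cfl2 in the 2 cofilins overlapped between the groups, at 39.0, 36.1 and 53.7% in TAC, against 35.3, 27.2 and 41.2% in Sham (exact permutation p = 0.4). Pfn1, profilin, which feeds monomers to growing ends, had 61.7 ± 9.79 FPKM in TAC and 70.7 ± 9.14 FPKM in Sham (SD, n = 3 each) and was not called (-0.03 ± 0.19). It had the highest FPKM of this role group over all 6 libraries and in Sham, while in TAC Tmsb4x was higher, at 66.2 ± 1.25 FPKM.

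Vim, vimentin, the intermediate filament of mesenchymal and endothelial cells (chromosome 2, 13573927 to 13582826, plus strand, GRCm38), had 289.6, 260.1 and 295 CPM in TAC, against 180.1, 135 and 175 CPM in Sham. Its groups were apart, with Sham replicate 2 the lowest (0.79 ± 0.15, edgeR adjusted p = 0.0301). The call was lost when TAC replicate 1 or 2 or Sham replicate 2 or 3 was left out (adjusted p between 0.0583 and 0.125). TAC replicate 3, with 137 FPKM of summed activated fibroblast markers beside 46.0 and 45.5 FPKM in the other TAC libraries, had 295 CPM of Vim, beside 289.6 and 260.1 CPM in those. Without it the log2 fold change was 0.75. The part of these cells in the rise was not tested. Dbn1, drebrin, which bundles actin, had 23.6, 23.8 and 26.3 CPM in TAC, against 19.5, 16.5 and 14.0 CPM in Sham, higher in every TAC library (0.56 ± 0.17, adjusted p = 0.0750; 0.78, adjusted p = 0.0363, with the trends removed).

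Over all genes the log2 fold change ran with base composition. The median was 0.33 in the tercile of tested genes poorest in G and C, -0.07 in the middle one and -0.17 in the richest, and 11.2% of the poorest were called higher. Of the 36 tested genes of the group 10 lay in the poorest tercile, among them 6 of the 7 that rose, and Capg, at 57.1% G and C, was the exception. With the trends of each library over GC content and transcript length taken out, 7 of 36 were called higher, where 2.71% of all genes were, and 1 lower, where 2.35% were. Enah (1.65, adjusted p = 0.0173), Crk (0.85, 0.0227), Capg (0.92, 0.0155), Itgb1 (0.65, 0.0424) and Vim (0.58, 0.0319) kept their call. Dbn1 and Ptk2b (0.71, 0.0348) gained one, Cfl2 and Tmsb4x lost theirs, and Tln2 was the one lower. The family shares used FPKM without this correction. In G and C, Itgb1, Tmsb4x and Parva, with larger shares in TAC, are poorer than Itgb5, Tmsb10 and Parvb. Tln2, with a smaller share, is also poorer than Tln1. With the trends removed the log2 fold changes were 0.65 and 0.34 for Itgb1 and Itgb5, and 0.47 and 0.28 for Tmsb4x and Tmsb10. They were -0.14 and -0.21 for Parva and Parvb. For Enah, Vasp and Evl they were 1.65, -0.10 and 0.05. Whether base composition itself caused any of these differences was not tested.

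**Figure D5:**
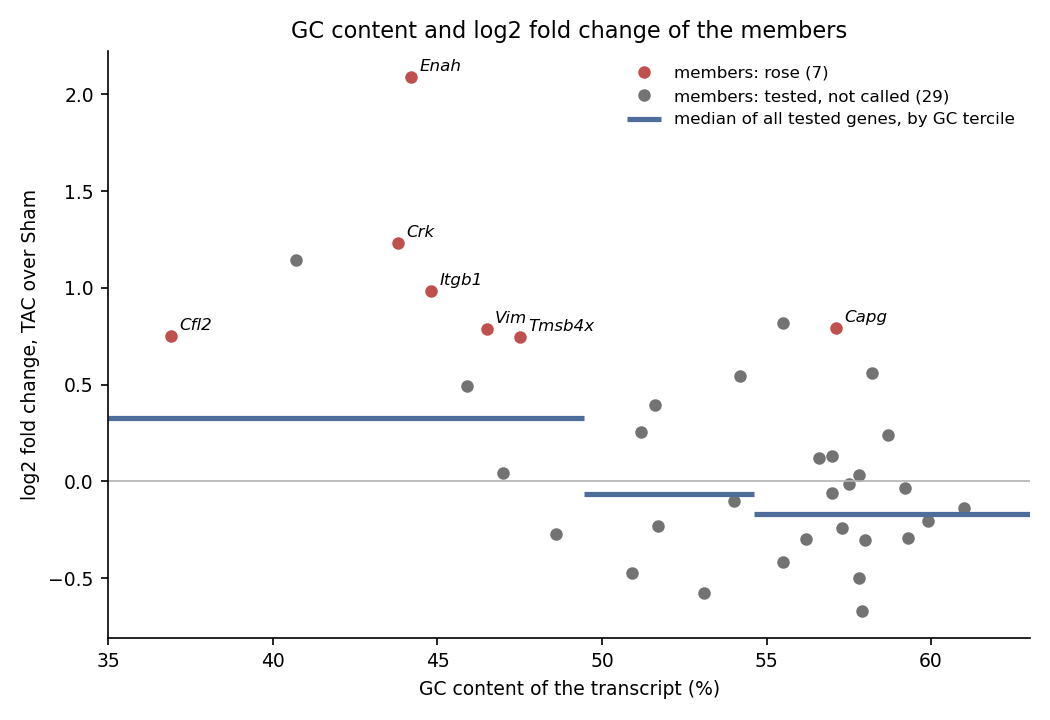
GC content of the transcript (horizontal, percent) and log2 fold change of TAC over Sham (vertical) for the 36 tested genes; red points rose. Blue bars are the medians of all tested genes in the 3 terciles of GC content, 0.33, -0.07 and -0.17, and 6 of the 7 risen genes lie in the tercile poorest in G and C.

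TAC replicate 3 also had a pattern of its own. It was the highest of the 6 libraries in 15 of the 36 tested genes (41.7%, beside 28.1% of all tested genes), and it exceeded the mean of the other TAC libraries by more than 1.5 times in 7 (beside 13.9% of all tested genes). These 7 were Vcl (2.88 times), Itga11 (2.68), Tns1 (1.85), Itga9 (1.73), Itgb1 (1.57), Itgb5 (1.56) and Tln2 (1.53). Of them Itgb1 alone was called with all libraries.

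Promoter windows were found in RefSeq for 36 of the 46 genes, and both strands were searched for 6 motifs in the 300 bases. None of the 7 risen genes held a CArG box, which 3 of the 36 (Fermt2, Itgb6 and Vcl) and 1.81% of all genes with a window held. The GC box GGGCGG, bound by factors of the SP family, was in 25 of 36, among them 5 of the 7 risen, and in 38.2% of all genes. CCAAT was in 9, with 3 of the risen, and in 41.1% of all genes. TATAAA was in 2, Lims1 and the risen Vim, and in 15.7% of all. CATTCC, the core that TEAD factors bind, was in 6, with 1 of the risen, Itgb1, and in 16.6% of all. TGANTCA, the site of AP-1 factors, was in 3, none of them risen, and in 8.97% of all. The windows of Enah and Cfl2, the risen genes of filament growth and filament cutting, are shown up to 30 bases after the start with GGGCGG on either strand in capitals. There were 6 matches in Enah (chr1:182019951-182020230, minus strand) and 8 in Cfl2 (chr12:54862848-54863127, minus strand), and some neighbouring matches share bases. They begin between 188 and 18 bases before the start in Enah and within the last 68 bases before it in Cfl2.
Enah: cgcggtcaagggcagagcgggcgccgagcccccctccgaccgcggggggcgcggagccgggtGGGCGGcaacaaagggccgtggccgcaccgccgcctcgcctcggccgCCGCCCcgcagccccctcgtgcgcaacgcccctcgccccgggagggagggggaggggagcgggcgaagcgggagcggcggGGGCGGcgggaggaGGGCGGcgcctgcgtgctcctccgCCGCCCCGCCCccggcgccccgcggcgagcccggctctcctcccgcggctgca
Cfl2: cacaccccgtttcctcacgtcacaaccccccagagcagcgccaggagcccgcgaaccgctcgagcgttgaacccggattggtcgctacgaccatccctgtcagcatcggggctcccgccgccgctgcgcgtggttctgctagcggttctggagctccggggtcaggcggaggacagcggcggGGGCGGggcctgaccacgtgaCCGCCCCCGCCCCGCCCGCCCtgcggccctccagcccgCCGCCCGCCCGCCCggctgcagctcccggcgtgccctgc
A match is only a run of letters and says nothing of binding in these hearts.

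Of 115 other tested genes of the same pathways, 10 rose (8.70%, beside 4.71% of all tested genes) and 0 fell, where 2.29% of all did. These lists too were chosen with earlier results known, so the shares are no independent test. At an unadjusted p under 0.05, 7 were lower, without a share over all tested genes to set beside them. DESeq2 called 21 higher and 3 lower, where it called 11.7% and 7.02% of all tested genes. Limma on log2(FPKM + 1) called 1 lower, where it called 338 of all 8795 lower. Among 18 integrin ligands only Postn, periostin, rose, with 16.2, 15.1 and 68.5 CPM in TAC, against 3.12, 0.956 and 1.33 CPM in Sham (4.20 ± 0.72, edgeR adjusted p = 0.0251). TAC replicate 3 was far above the other TAC libraries, and without it the log2 fold change was 3.11 (adjusted p = 0.00632). Of 26 other adaptors Sorbs2, an adaptor of the Z-disc, had 94.3 ± 42.6 CPM in TAC and 34.6 ± 8.00 CPM in Sham (1.45 ± 0.31), and Rdx, radixin, had 19.9 ± 2.10 CPM in TAC and 11.1 ± 1.79 CPM in Sham (0.84 ± 0.17). With the GC and length trends removed both lost their call, Sorbs2 at 0.69 (adjusted p = 0.0922) and Rdx at 0.47 (adjusted p = 0.0628), and Postn kept its own at 3.45 (adjusted p = 0.0292). Of 22 other signalling genes, 2 that act next to Crk rose, namely Dock1, a Rac activator that binds Crk, with 14.5 ± 1.92 CPM in TAC and 8.87 ± 0.608 CPM in Sham (0.71 ± 0.17), and Rap1b, a small GTPase that turns integrins on, with 22.5 ± 0.275 CPM in TAC and 14.2 ± 1.02 CPM in Sham (0.66 ± 0.14).

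Of 38 other actin turnover genes 4 rose. Xirp2, an actin-binding protein of the intercalated disc and of stressed muscle, had 154, 169 and 133 CPM in TAC, against 37.7, 29.4 and 39.6 CPM in Sham (2.09 ± 0.17, edgeR adjusted p = 0.00227), and was called in all 6 fits without 1 library. Actr2, a subunit of the filament-branching Arp complex, had 8.79 ± 0.411 CPM in TAC and 3.47 ± 1.02 CPM in Sham (1.34 ± 0.25). Dstn, destrin, the third actin-depolymerizing gene next to the cofilins, had 49.7 ± 4.02 CPM in TAC and 30.7 ± 3.58 CPM in Sham (0.69 ± 0.14), and Capza2, a capping subunit, had 29.4 ± 2.33 CPM in TAC and 17.7 ± 3.01 CPM in Sham (0.73 ± 0.17). With the GC and length trends removed Capza2 was at -0.03 and Rap1b at 0.05, neither called, and of these 4 actin genes Xirp2 alone kept its call. The 9 others of the 10 kept theirs in 1 to 4 of the 6 fits without 1 library. Of 9 regulators around serum response factor Fhl1, part of a stretch-sensing complex at titin, rose, with 66.6 ± 22.8 CPM in TAC and 31.9 ± 2.74 CPM in Sham (1.06 ± 0.23). The 2 other tested integrin genes were not called, and Itgb1bp1, the higher of them, had 26.2 ± 3.33 CPM in TAC and 22.3 ± 1.64 CPM in Sham (0.24 ± 0.16).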

How the data were processed

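Poly(A) RNA was purified from Trizol extracts and made into strand-marking dUTP libraries, per the labels' protocols. The submitters' processing notes name GRCm38, HISAT2 2.0.4, StringTie 1.3.4d and cutadapt 1.9. The annotation release and strand setting were not given in the sources used here. Per the file headers, the authors deposited FPKM and whole-number estimated counts for 24602 genes in each library, and 0 other per-sample columns were left unused. Of 8483 genes over 200 counts in every library, 99.5% had estimated counts proportional to the deposited FPKM within 1%. No source used here says how the counts were made, so they were treated as estimated counts and not as read tallies.

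Libraries were grouped by their titles. The 8795 genes whose mean FPKM reached 1 were compared with edgeR 4.0.16 (R 4.3.3; TMM, estimateDisp, glmQLFit, glmQLFTest), with p-values adjusted over all tested genes by the Benjamini-Hochberg method and a threshold of 0.05. The test was checked on simulated counts. Counts of 3 libraries against 3 limit the precision. The standard error is the log2 fold change divided by the square root of F. The 10 genes with lower FPKM took values from edgeR's filterByExpr fit. Shares of a gene in its family used FPKM and an exact 2-sided permutation test. Alternatives were RLE and library total scaling, DESeq2 1.42.0, limma 3.58.1 on log2(FPKM + 1) or log2(FPKM + 0.1), other filters, GC and length trends removed as offsets, the replicate number as a block, and each library left out.

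The 46 genes, the pathway lists and the cell type markers were chosen with earlier results of these data known. The naming rule gave every gene of the group, with all libraries' values where it was called, shared a complex or isoform pair with a called gene or led its role group. From the pathway lists it named up to 4 called genes each, or the most abundant where none was called. Promoters came from RefSeq (GRCm38.p6), and coding sequence, GC content and overlaps from GENCODE M21.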

Additional observations from a re-analysis of the deposited data

How the results depend on the processing

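Of 8795 tested genes 615 were called, 414 higher and 201 lower in TAC, and of the 36 tested genes of the group 7 were. RLE scaling called 641 and 7. DESeq2 called 1648 and 11. Scaling by library total called 345 genes, 157 higher and 188 lower, with a median log2 fold change over all genes of -0.14. It called 3 of the group, Crk, Enah and Tmsb4x. Limma on log2(FPKM + 1) called 512 and 4, with 174 higher and 338 lower and a median of -0.13, and on log2(FPKM + 0.1) 506 and 4, with 170 higher and 336 lower and a median of -0.16. Both limma fits called Capg, Crk, Enah and Tmsb4x of the group. Without a filter the counts were 285 and 2 (Crk and Enah), and with filterByExpr 774 and 6 (all 7 but Cfl2). With a mean FPKM of 5 or more they were 211 and 3 of 26 tested (Capg, Tmsb4x and Vim). Crk and Enah lie under that limit, while Itgb1 and Cfl2 were tested there and not called. Removing the GC and length trends gave 445 and 8, with 238 higher and 207 lower. Leaving out 1 library gave 12 to 1705 genes and 0 to 11 of the group. The fewest came without Sham replicate 2 and the most without TAC replicate 3; without TAC replicate 1 there were 51 and 1, without TAC replicate 2 133 and 3, without Sham replicate 1 361 and 4, and without Sham replicate 3 51 and 1. No called gene of the group changed sign in any of these fits, and the cause of the differences between settings was not tested. With the replicate number as a block 183 genes and 2 of the group (Crk and Enah) were called, and with the block and the trends removed 120 and 1 (Enah). Deviations from the group means correlated at -0.10, 0.14 and -0.06 for replicates 1, 2 and 3, and at -0.23 to 0.25 between unlike replicate numbers. Deviations within a group of 3 libraries must sum to 0, so these values cannot decide whether the numbers pair the libraries. Shares taken from counts divided by transcript length moved for Enah in its family, where TAC minus Sham was 12.8 points instead of 9.06, and for Itga3, at -0.85 instead of -1.31. Low counts limit Itgb8, Itga8 and Itga10, which had between 0 and 92 estimated counts per library.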

Other observations

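Other markers among the lists were read for what else the libraries held. Of 9 endothelial markers Tek rose, while 4 had an unadjusted p under 0.05 in either direction and DESeq2 called 3. Log2 fold changes of the 9 had their median at 0.28, and the summed level was 169 to 251 FPKM in TAC and 192 to 213 FPKM in Sham. Of 6 pericyte markers Rgs5 rose, while the median log2 fold change of the 6 was -0.14 and the summed level was lower in every TAC library, at 94.5, 95.2 and 91.3 FPKM in TAC and 109, 108 and 100.8 FPKM in Sham. Of 6 smooth muscle markers Cnn1 rose, with a median log2 fold change of 0.40 and summed levels of 86.9 to 128 FPKM in TAC and 103 to 144 FPKM in Sham. Of 4 tested atrial markers Nppa rose, while the median log2 fold change of the 4 was -1.16. The summed level of the atrial list was 1309 to 2920 FPKM in TAC and 497 to 1189 FPKM in Sham. None of 5 erythroid markers was called (3 at an unadjusted p under 0.05 and 2 by DESeq2), with 1252 to 2588 FPKM in TAC and 617 to 1921 FPKM in Sham. None of 3 endocardial markers was called (1 at an unadjusted p under 0.05 and 0 by DESeq2). The neutrophil, platelet and Schwann lists had 1 tested gene each and no call, and the T cell, B cell, mesothelial, adipocyte and skeletal muscle lists had 0 tested genes. Ly6g, of the neutrophil list, was at 0 in all 6 libraries.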
